A study of Mus musculus with 24 samples.

Results

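The transcripts of 9 transcription factor genes of pluripotent cells were followed in mESCs after either inhibitor of 2i was taken away on soft or stiff substrates. *Otx2*, *Pou3f1*, *Sox3*, *Sox4*, *Zic2* and *Foxd3* are usually counted among formative factors, and *Pou5f1*, *Sox2* and *Sall4* among general pluripotency factors. The genes were chosen by symbol from both deposited count tables, and all 9 were found among the 35022 genes listed for PD03 removal and the 48709 listed for CHIRON removal. All 9 also passed the filter on low counts in both experiments. E14 mESCs, an established line labelled as 129m wt, were plated on fibronectin-coated StemBond hydrogels, which are polyacrylamide gels with stable matrix tethering, and were kept for 12 h in 2i + LIF with 1 µM PD03 and 3 µM CHIRON. PD03 inhibits MEK and so blocks ERK signalling, whereas CHIRON inhibits GSK3 and thereby keeps β-catenin stable. Cells were harvested for RNA before the change of medium (0 h, in 2i + LIF) and 2 h or 12 h after a change to CHIRON + LIF (PD03 removal) or to PD03 + LIF (CHIRON removal), so LIF was present in every group. No group was kept in 2i + LIF for a further 2 h or 12 h. Loss of the inhibitor, the change of medium and time in culture therefore cannot be told apart. With 2 substrates, 3 times and 2 replicates, each removal comprised 12 libraries, 24 in all. The library of CHIRON removal on stiff substrates at 2 h with replicate number 1, which held 171333 counts in all and 11 counts over the 9 genes, was discarded by the study and was left out here, so that 23 libraries remained and this group had 1 library. All libraries came from 1 cell line, and the labels do not say that replicates came from separate cultures, so p-values measure only the spread between these libraries.

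Pluripotent cells of the mouse pass from a naïve state, like that of the pre-implantation epiblast, to a formative state in which they become competent to respond to lineage signals. The general factors act in both states: OCT4, the product of *Pou5f1*, and SOX2 bind DNA together at composite octamer and SOX motifs, and SALL4 is a zinc finger protein of the same network. The formative factors act as the naïve state is left, and some of them, such as FOXD3, are also present in naïve cells. OTX2 is a homeodomain protein that redirects OCT4 to new enhancers, OCT6 (*Pou3f1*) is a POU factor of the epiblast and neural lineage, and FOXD3 is a forkhead repressor and pioneer factor. SOX3 is a close relative of SOX2, SOX4 belongs to another branch of the SOX family, and ZIC2 is a zinc finger protein found at enhancers. In bulk RNA, a larger share of cells that express a gene and more RNA per cell cannot be told apart.

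Total counts per library ranged from 16222196 to 26442153 for PD03 removal, and the 11 libraries used for CHIRON removal held 19393787 to 31111260. Replicates of PD03 removal differed by a chi-square of 2.79 to 4.93 per degree of freedom, where 1 is sampling noise alone. Those of CHIRON removal differed by 6.35 to 65.3, highest for soft substrates at 12 h and next for stiff substrates at 0 h with 25.7. The summed level of 5 naïve markers (*Nanog*, *Zfp42*, *Esrrb*, *Tfcp2l1* and *Klf4*) was at least 3950 CPM in every library used, whereas lists of 5 markers of other cells summed to at most 136 CPM (neural), 57.4 CPM (mesendoderm), 25.8 CPM (trophoblast), 8.23 CPM (primitive endoderm) and 6.67 CPM (fibroblast). CPM is the usual library-scaled count, taken here relative to the TMM-scaled total over tested protein-coding genes.

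The levels of the 9 genes spanned more than 3 orders of magnitude, and the general factors were highest in both experiments. Compared per length, as CPM per kb of exonic length, *Pou5f1* ranged from 434 to 494 over the 12 libraries of PD03 removal, *Sox2* from 190 to 286 and *Sall4* from 97.5 to 142, and these ranges did not overlap. *Zic2* (20.9 to 26.5) and *Foxd3* (16.9 to 36.2) followed and could not be ordered. The other 4 formative genes were near or below 1 CPM per kb. *Sox4* ranged from 0.772 to 1.73, *Otx2* from 0.505 to 1.11, *Sox3* from 0.154 to 0.837 and *Pou3f1* from 0.0988 to 0.643, each overlapping its neighbour in this order. In CHIRON removal, *Pou5f1* ranged from 321 to 416, and *Sall4* (135 to 181) and *Sox2* (103 to 175) overlapped. The ranges of *Zic2* (27.9 to 48.0) and *Foxd3* (26.2 to 37.9) overlapped as well. *Otx2* (0.267 to 1.85), *Pou3f1* (0.443 to 1.11), *Sox4* (0.554 to 0.974) and *Sox3* (0.263 to 0.868) all overlapped. The low genes rested on few counts. In PD03 removal *Sox3* had 4 to 24 counts per library, *Pou3f1* 6 to 36, *Otx2* 31 to 72 and *Sox4* 57 to 117, whereas *Pou5f1* had 12610 to 22002.

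**Figure D1:**
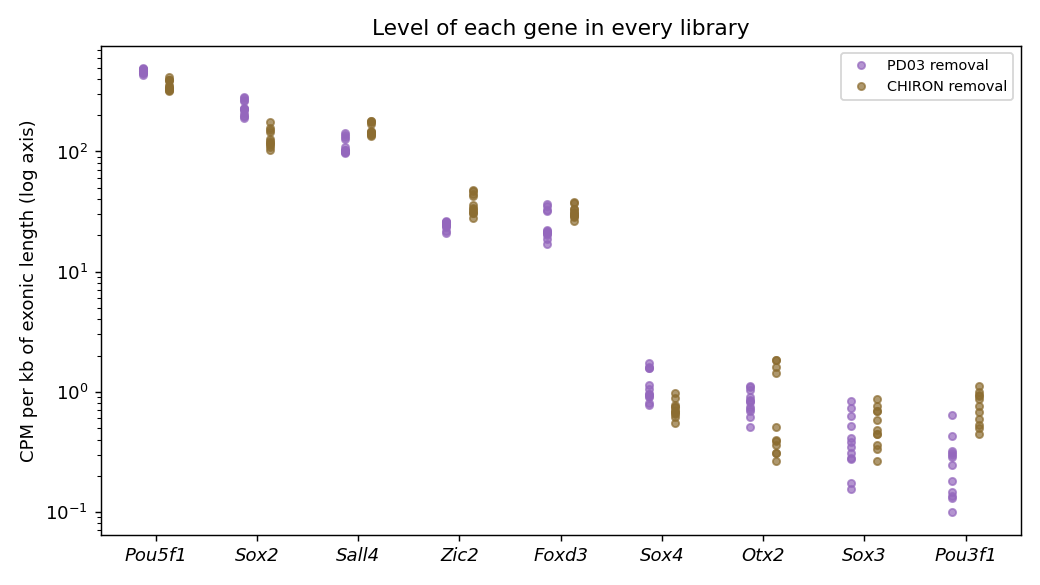
Level of each of the 9 genes in every library used, as CPM per kb of exonic length on a log axis, with 1 point per library (12 libraries of PD03 removal, 11 of CHIRON removal). The general factors and *Zic2* and *Foxd3* lie above 10 CPM per kb in every library, and the other 4 formative genes lie below 2.

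In GRCm38, *Otx2* lies at chr14:48657677-48673819 and *Zic2* at chr14:122475435-122479852. *Pou3f1* lies at chr4:124656807-124660655 and *Foxd3* at chr4:99656299-99658622, while *Sox3* is X-linked, at chrX:60891366-60893430, and *Sox4* lies at chr13:28948919-28953713. Of the general factors, *Pou5f1* lies at chr17:35506018-35510772, *Sox2* at chr3:34650405-34652461 and *Sall4* at chr2:168748332-168767943. *Otx2*, *Sox3*, *Sox4* and *Sall4* are on the minus strand and the others on the plus strand. *Sox4* shares 54.6% of its exonic bases with the antisense lincRNA gene *Gm26735*, and *Pou5f1* shares 14.1% with the antisense gene *Gm19553*. Whether counting used the strand is not given in the sources used here, and without it reads of such pairs cannot be told apart. *Sox2* lies within *Sox2ot* on the same strand and shares no exonic base with it.

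Promoters were chosen from members called in the same direction on both substrates at 12 h after at least 1 of the removals, a choice made on the results that follow. By this criterion *Otx2*, *Sox4*, *Zic2*, *Sall4* and *Sox2* qualified, in order of the size of their change, and RefSeq windows of GRCm38.p6 from 250 bases before to 50 bases after the start of transcription were at hand for *Otx2*, *Sox4* and *Sox2*. For *Otx2* the first of 4 listed windows is shown (chr14:48667595-48667894, minus strand), with *Sox4* at chr13:28953650-28953949 (minus strand) and *Sox2* at chr3:34649745-34650044 (plus strand). Capitals mark ATGCAAA, a partial octamer.
*Otx2*: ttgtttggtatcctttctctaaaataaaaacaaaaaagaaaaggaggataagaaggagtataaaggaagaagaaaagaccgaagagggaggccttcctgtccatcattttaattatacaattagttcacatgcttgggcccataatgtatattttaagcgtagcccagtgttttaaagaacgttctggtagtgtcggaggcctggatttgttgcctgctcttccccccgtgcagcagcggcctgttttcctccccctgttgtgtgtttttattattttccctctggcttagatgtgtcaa
*Sox4*: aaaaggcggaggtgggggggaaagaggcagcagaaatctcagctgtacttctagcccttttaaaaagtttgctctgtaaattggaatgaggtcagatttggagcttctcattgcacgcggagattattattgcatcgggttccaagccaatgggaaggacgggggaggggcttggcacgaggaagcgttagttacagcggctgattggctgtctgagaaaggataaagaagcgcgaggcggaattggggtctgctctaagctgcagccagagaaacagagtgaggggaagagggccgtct
*Sox2*: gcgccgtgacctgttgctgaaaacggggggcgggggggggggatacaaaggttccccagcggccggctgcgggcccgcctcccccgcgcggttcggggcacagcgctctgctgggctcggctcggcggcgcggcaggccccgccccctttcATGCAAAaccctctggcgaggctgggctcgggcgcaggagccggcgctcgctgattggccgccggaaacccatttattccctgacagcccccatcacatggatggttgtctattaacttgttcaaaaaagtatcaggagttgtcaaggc
The windows were searched on both strands for TGACTCA (the AP-1 site), CCGGAAG (an ETS site), CTTTGAT (a TCF/LEF site), ATGCAAA (the octamer) and ATTGTT (a SOX site). No motif contains another on either strand, and a match is a description only. The *Sox2* window held the partial octamer on the plus strand, starting 99 bases before the RefSeq start of transcription. The next base there is A, so the match is not a full octamer. This window lies wholly upstream of the *Sox2* position given above, so that start differs from the one of the gene position. The partial octamer was found in 4.63% of 32851 promoter windows of the same length. No match to the 5 motifs was found in the 4 windows of *Otx2*, nor in those of *Sox4* and *Foxd3*. The second of 2 windows of *Pou5f1* held the SOX site on the minus strand, 159 bases before the start. A match to this site at any position was found in 10.7% of all windows. The ETS site was found in 8.86%, the AP-1 site in 5.2% and the TCF/LEF site in 3.73% of all windows.

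It was first asked which of the 9 genes responded within 2 h of PD03 removal, when ERK signalling is released. *Foxd3* and *Sox2* rose on both substrates, and *Zic2* rose on stiff substrates. On soft substrates *Foxd3* measured 51.1 and 49.0 CPM at 0 h and 75.6 and 74.4 CPM at 2 h, and on stiff substrates 50.5 and 48.5 CPM at 0 h and 84.1 and 81.2 CPM at 2 h. Every library at 2 h was above every library at 0 h. The log2 fold change of *Foxd3* was 0.58 ± 0.074 on soft substrates (SE, n = 2 per group, adjusted p = 6.7e-06 by edgeR's quasi-likelihood test) and 0.74 ± 0.072 on stiff substrates (adjusted p = 2.9e-08). *Sox2* measured 469 and 467 CPM at 0 h and 546 and 549 CPM at 2 h on soft substrates, and 467 and 461 CPM against 589 and 576 CPM on stiff substrates. Its log2 fold changes were 0.23 ± 0.042 (adjusted p = 0.0012) and 0.33 ± 0.042 (adjusted p = 3.4e-06). *Zic2* measured 62.4 and 60.1 CPM at 0 h and 72.2 and 76.4 CPM at 2 h on stiff substrates, with a change in log2 of 0.28 ± 0.061 (adjusted p = 0.0059). On soft substrates its change was 0.073 ± 0.061 and did not pass (adjusted p = 0.72).

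Thus 2 of 9 genes were called on soft substrates, where 1.96% of the 13423 genes tested were called, and 3 of 9 on stiff substrates, where 2.73% were called. The other general factors stayed close to 0 on this scale, with log2 fold changes of 0.001 and 0.047 for *Pou5f1* and −0.019 and 0.054 for *Sall4* on soft and stiff substrates (SE 0.043 to 0.045). *Otx2* measured 2.92 and 3.04 CPM at 0 h and 4.7 and 4.6 CPM at 2 h on stiff substrates, and its log2 fold change of 0.64 ± 0.21 did not pass the test (adjusted p = 0.13). *Sox4*, *Pou3f1* and *Sox3* also did not pass, and SEs of up to 0.62 limited what could be detected for the last pair. The call of *Zic2* was lost without stiff 0 h replicate 2 (log2 fold change 0.25, adjusted p = 0.13) or stiff 2 h replicate 2 (0.24, adjusted p = 0.11), within a range of 0.0034 to 0.13 over its alternatives.

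**Figure D2:**
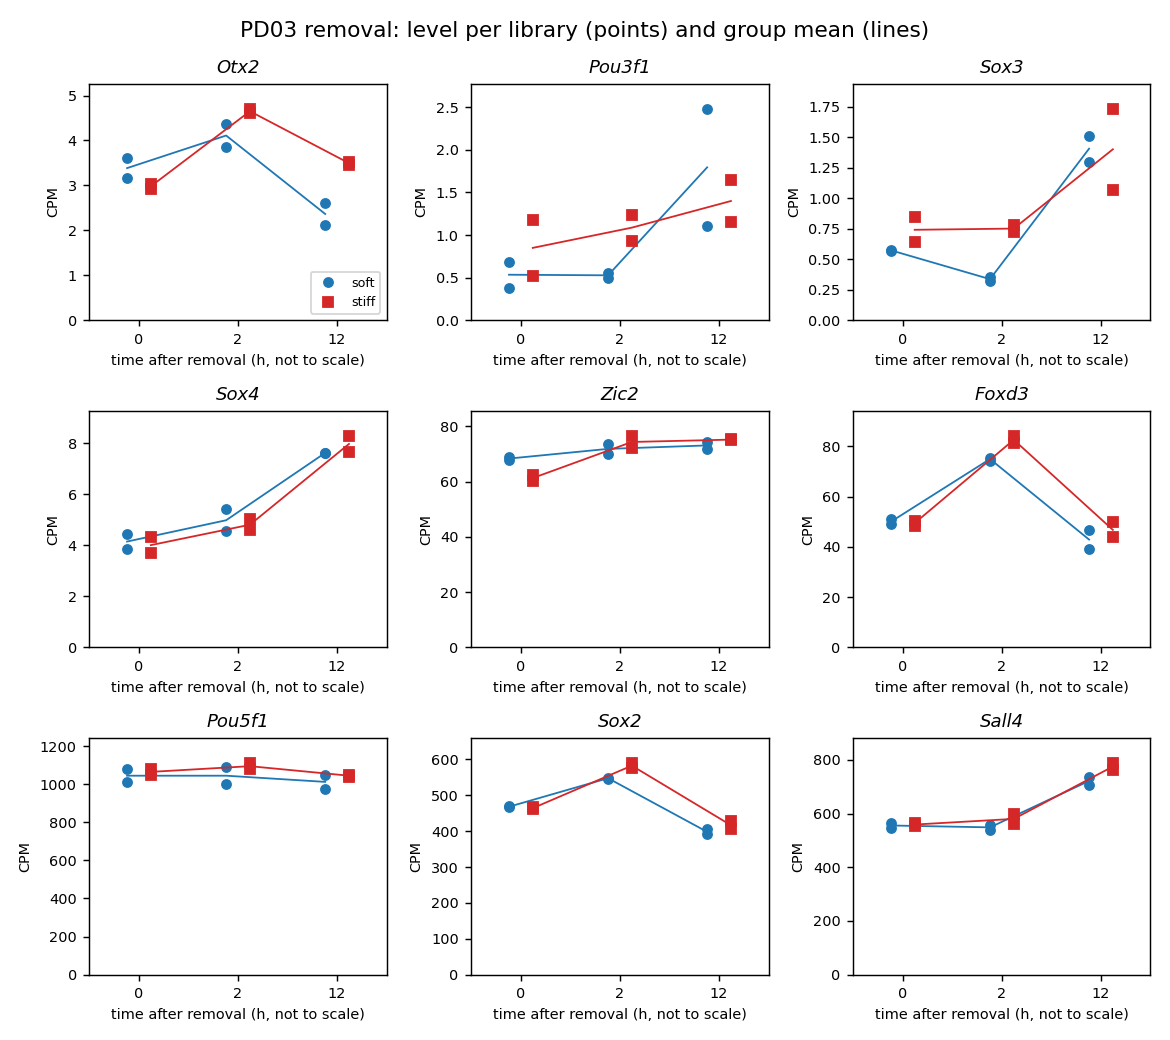
CPM of the 9 genes in the 12 libraries of PD03 removal by time (h, spaced evenly), with 1 point per library, circles for soft and squares for stiff substrates, and lines through the group means. *Foxd3* and *Sox2* peak at 2 h on both substrates, *Sox4* and *Sall4* are highest at 12 h, and *Pou5f1* lies between 975 and 1110 CPM throughout.

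The same comparison at 12 h asked which changes were seen after a longer time without PD03. *Sox4* and *Sall4* rose and *Sox2* fell on both substrates, *Pou3f1* and *Sox3* rose and *Foxd3* fell on soft substrates, and *Zic2* rose on stiff substrates. *Sox4*, a SOX factor with roles in progenitor cells, measured 4.43 and 3.87 CPM at 0 h and 7.63 and 7.62 CPM at 12 h on soft substrates, and 3.7 and 4.32 CPM against 8.28 and 7.67 CPM on stiff substrates. All 12 h libraries were above all 0 h libraries. Its level was 1.83-fold higher on soft substrates (log2 fold change 0.87 ± 0.18, adjusted p = 0.00041) and 1.98-fold higher on stiff substrates (0.98 ± 0.18, adjusted p = 7e-05). *Sall4* measured 564 and 547 CPM at 0 h and 707 and 736 CPM at 12 h on soft substrates, and 566 and 552 CPM against 787 and 763 CPM on stiff substrates. Its log2 fold changes were 0.38 ± 0.043 (adjusted p = 8e-08) and 0.47 ± 0.043 (adjusted p = 6e-10).

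*Pou3f1*, the gene of OCT6, measured 0.69 and 0.38 CPM at 0 h and 2.48 and 1.11 CPM at 12 h on soft substrates, so the replicates at 12 h were far apart but both above 0 h. Its log2 fold change was 1.70 ± 0.48 (adjusted p = 0.0081), from 12 and 6 counts at 0 h and 36 and 17 counts at 12 h. On stiff substrates it measured 0.52 and 1.18 CPM at 0 h and 1.15 and 1.65 CPM at 12 h, groups that overlapped, with a log2 fold change of 0.65 ± 0.46 (adjusted p = 0.29). *Sox3* measured 0.575 and 0.571 CPM at 0 h and 1.51 and 1.3 CPM at 12 h on soft substrates, and its log2 fold change was 1.28 ± 0.43 (adjusted p = 0.026). On stiff substrates its log2 fold change was 0.95 ± 0.42 (adjusted p = 0.074). The difference in response between substrates was tested for both genes and did not pass, so the call on 1 substrate alone does not set the substrates apart.

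*Sox2* measured 391 and 405 CPM at 12 h on soft substrates and 427 and 406 CPM on stiff substrates, below every library at 0 h. Its log2 fold changes were −0.23 ± 0.042 (adjusted p = 0.0001) and −0.16 ± 0.042 (adjusted p = 0.0045). *Foxd3* measured 39.2 and 46.7 CPM at 12 h on soft substrates, where its log2 fold change was −0.22 ± 0.078 (adjusted p = 0.033), and 49.8 and 43.8 CPM on stiff substrates, where the groups overlapped (−0.076 ± 0.078, adjusted p = 0.47). *Zic2* measured 75.0 and 75.3 CPM at 12 h on stiff substrates, with a change in log2 of 0.30 ± 0.061 (adjusted p = 0.00035), and its value on soft substrates was 0.098 ± 0.06 (adjusted p = 0.24). *Pou5f1* measured 975 and 1050 CPM on soft and 1050 and 1040 CPM on stiff substrates at 12 h, with log2 fold changes of −0.048 and −0.024 (both SE 0.045). *Otx2* measured 2.13 and 2.6 CPM on soft substrates at 12 h, below its 0 h libraries at 3.16 and 3.61 CPM, and 3.53 and 3.46 CPM on stiff substrates. Its log2 fold changes of −0.51 ± 0.24 and 0.23 ± 0.23 did not pass the test (adjusted p = 0.11 and 0.47).

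In all, 6 of 9 genes were called on soft substrates, 4 higher and 2 lower, beside 29.4% of all genes tested, and 4 of 9 on stiff substrates, 3 higher and 1 lower, beside 38.4%. The median log2 fold change of the 9 genes was 0.098 and 0.30 on soft and stiff substrates, against −0.001 over all genes on both. Other measures also moved with time in this experiment. The share of counts on the mitochondrial genome was 5.7% to 7.03% at 0 h, 7.14% to 9.48% at 2 h and 10.03% to 11.81% at 12 h. The 5 naïve markers summed to 5340 to 5430 CPM at 0 h and 4160 to 4610 CPM at 12 h. The 5 mesendoderm markers, which mark cells of the primitive streak, summed to 15.5 to 19.1 CPM at 0 h and 47.1 to 57.4 CPM at 12 h, and the 5 neural markers to 98.1 to 108 and 83.2 to 89.4 CPM. The 5 primitive endoderm markers summed to 3.28 to 3.81 CPM at 0 h and 4.03 to 5.01 CPM at 12 h. The 5 trophoblast markers summed to 13.8 to 16.5 CPM at 0 h, 9.67 to 11.7 CPM at 2 h and 17.9 to 21.7 CPM at 12 h. At 2 h the neural markers summed to 91.7 to 95.4 CPM, and the other marker sums overlapped those at 0 h. The part of these in the changes above was not tested. The call of *Pou3f1* was lost without soft 0 h replicate 2 (log2 fold change 1.36, adjusted p = 0.096) or soft 12 h replicate 1 (1.02, adjusted p = 0.25; range over alternatives 0.0015 to 0.25), and that of *Sox3* without any of the 4 libraries compared, soft 0 h and soft 12 h replicates 1 and 2 (1.18 to 1.39, adjusted p = 0.065 to 0.13; range 0.024 to 0.13). DESeq2 gave no adjusted p for *Sox3* here. The call of *Foxd3* was lost with DESeq2 (adjusted p = 0.078), with all genes of the table (0.055), and without soft 0 h replicate 1 (−0.19, 0.18) or 2 (−0.25, 0.073) or soft 12 h replicate 1 (−0.099, 0.48; range 0.0064 to 0.48), and that of *Sox2* on stiff substrates without stiff 12 h replicate 2 (−0.12, 0.091; range 0.0018 to 0.091).

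*Foxd3* and *Sox2* were higher at 2 h but not at 12 h than at 0 h, so the comparison of 12 h with 2 h was added after these values were seen. From 2 h to 12 h *Foxd3* fell by 0.80 ± 0.076 on soft and by 0.82 ± 0.076 on stiff substrates on the log2 scale (adjusted p = 4.8e-09 and 1.5e-09), which is to 0.573 and 0.567 times its level at 2 h. *Sox2* fell by 0.46 ± 0.042 and by 0.48 ± 0.042 (adjusted p = 2.4e-09 and 4.7e-10). *Sall4* rose by 0.40 and 0.42 (SE 0.043) and *Sox4* by 0.62 and 0.73 (SE 0.18) on soft and stiff substrates. On soft substrates *Otx2* also fell, by 0.79 ± 0.24 (adjusted p = 0.011), and *Pou3f1* and *Sox3* rose, by 1.74 ± 0.51 (adjusted p = 0.0096) and 2.03 ± 0.51 (adjusted p = 0.003). On stiff substrates *Otx2* (−0.41, adjusted p = 0.14), *Pou3f1* (0.34, 0.59) and *Sox3* (0.91, 0.1) did not pass, and the difference between substrates was not tested for 12 h against 2 h. DESeq2 gave no adjusted p for *Sox3* on soft substrates. In total 7 of 9 genes were called on soft substrates beside 31.4% of all genes, and 4 of 9 on stiff substrates beside 37.5%. This comparison shares its 2 h and 12 h libraries with those above and is not independent of them. On soft substrates *Otx2* lost its call without soft 12 h replicate 1 (−0.65, adjusted p = 0.11) or soft 2 h replicate 2 (−0.69, 0.09; range over alternatives 0.0097 to 0.11), and *Sox4* without soft 2 h replicate 1 (0.50, 0.11; range 0.0065 to 0.11). *Pou3f1* lost it without soft 12 h replicate 1 (1.06, 0.24), soft 2 h replicate 1 (1.67, 0.071) or soft 2 h replicate 2 (1.82, 0.051; range 0.0019 to 0.24).

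**Figure D3:**
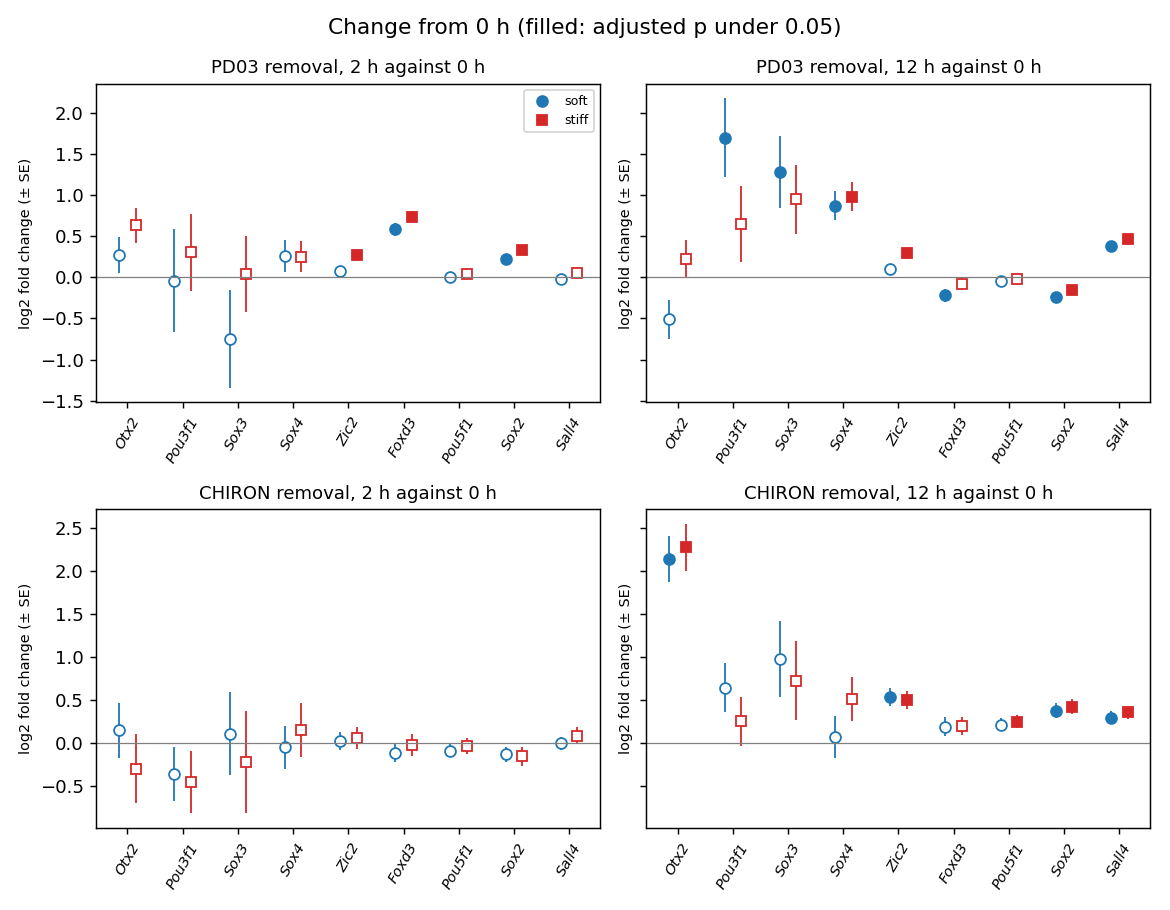
Log2 fold change ± SE of each gene at 2 h and 12 h against 0 h after PD03 removal (top) and CHIRON removal (bottom), with circles for soft and squares for stiff substrates and filled symbols for adjusted p under 0.05. After PD03 removal *Foxd3* and *Sox2* are filled and positive on both substrates at 2 h, and after CHIRON removal the filled genes appear only at 12 h, with *Otx2* above 2 on both substrates.

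Removal of CHIRON, which ends the stabilisation of β-catenin, was followed by a different set of changes. At 2 h none of the 9 genes was called by edgeR or DESeq2 on either substrate, and none had an unadjusted p under 0.05 in edgeR. Over all 14615 genes tested, 0.226% were called on soft and 0.103% on stiff substrates, the latter with 1 library at 2 h, whose spread was assumed to be that of the other groups. Log2 fold changes of the 9 genes at 2 h ranged from −0.36 ± 0.31 (*Pou3f1*) to 0.14 ± 0.33 (*Otx2*) on soft substrates and from −0.46 ± 0.36 (*Pou3f1*) to 0.15 ± 0.32 (*Sox4*) on stiff substrates.

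By 12 h *Otx2*, *Zic2*, *Sox2* and *Sall4* had risen on both substrates, and *Pou5f1* had risen on stiff substrates. *Otx2* measured 1.62 and 1.3 CPM at 0 h and 6.82 and 6.02 CPM at 12 h on soft substrates, and 1.68 and 1.52 CPM against 7.8 and 7.78 CPM on stiff substrates. No other library of this experiment exceeded 2.13 CPM. It was thus 4.41-fold higher on soft substrates (log2 fold change 2.14 ± 0.27, adjusted p = 1.9e-05) and 4.85-fold higher on stiff substrates (2.28 ± 0.27, adjusted p = 1e-05). *Zic2* measured 92.7 and 88.5 CPM at 0 h and 127 and 135 CPM at 12 h on soft substrates, and 87.7 and 97.0 CPM against 123 and 138 CPM on stiff substrates. Its log2 fold changes were 0.53 ± 0.10 (adjusted p = 0.0013) and 0.50 ± 0.10 (adjusted p = 0.0022).

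*Sox2*, of the general factors, measured 259 and 250 CPM at 0 h and 298 and 360 CPM at 12 h on soft substrates, and 240 and 235 CPM against 311 and 324 CPM on stiff substrates, without overlap. Its log2 fold changes were 0.37 ± 0.087 (adjusted p = 0.0059) and 0.42 ± 0.087 (adjusted p = 0.0023). *Sall4* measured 777 and 786 CPM at 0 h and 970 and 943 CPM at 12 h on soft substrates, and 751 and 808 CPM against 1000 and 987 CPM on stiff substrates, with log2 fold changes of 0.29 ± 0.078 (adjusted p = 0.015) and 0.35 ± 0.078 (adjusted p = 0.0041). *Pou5f1* measured 763 and 736 CPM at 0 h and 878 and 893 CPM at 12 h on stiff substrates, with a change in log2 of 0.24 ± 0.076 (adjusted p = 0.036). On soft substrates its value was 0.21 ± 0.076 (adjusted p = 0.065 with edgeR and 0.019 with DESeq2, range over alternatives 0.019 to 1). *Foxd3*, *Pou3f1*, *Sox3* and *Sox4* did not pass, with log2 fold changes of 0.064 (*Sox4*) to 0.97 (*Sox3*) on soft and 0.19 (*Foxd3*) to 0.72 (*Sox3*) on stiff substrates.

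Hence 4 of 9 genes were called on soft substrates, beside 17.8% of all genes, and 5 of 9 on stiff substrates, beside 16.8%, all of them higher at 12 h. The median log2 fold change of the 9 genes was 0.37 and 0.42, against −0.014 and −0.009 over all genes. The 5 neural markers summed to 69.8 to 79.8 CPM at 0 h and 127 to 136 CPM at 12 h, the 5 mesendoderm markers to 19.3 to 22.1 and 9.14 to 12.4 CPM (*Mesp1* at 0 counts in every library at both times), and the 5 naïve markers to 4120 to 4380 and 3990 to 4240 CPM. The 5 trophoblast markers summed to 12.6 to 15.1 CPM at 0 h and 18.0 to 25.8 CPM at 12 h. The part of these in the changes was not tested. *Otx2* kept its call in every alternative, and with the discarded library added it was the 1 gene of the 9 called on either substrate. Without 1 library, calls were lost for *Sox2* on soft substrates (without soft 0 h replicate 2, log2 fold change 0.34, adjusted p = 0.074, or soft 12 h replicate 2, 0.23, 0.11), *Sall4* on soft substrates (without soft 0 h replicate 1, 0.31, 0.076, or 2, 0.30, 0.092, or soft 12 h replicate 1, 0.27, 0.078) and *Zic2* on stiff substrates (without stiff 12 h replicate 2, 0.41, 0.054). The call of *Pou5f1* was lost without any of the 4 stiff libraries compared, 0 h and 12 h replicates 1 and 2 (0.23 to 0.27, adjusted p = 0.066 to 0.17), and in a model of only the groups compared (adjusted p = 0.1). Over all alternatives, the adjusted p ranged from 0.00021 to 1 (*Sox2*, soft), 0.001 to 1 (*Sall4*, soft), 1.7e-06 to 0.93 (*Zic2*, stiff) and 0.0058 to 1 (*Pou5f1*, stiff).

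**Figure D4:**
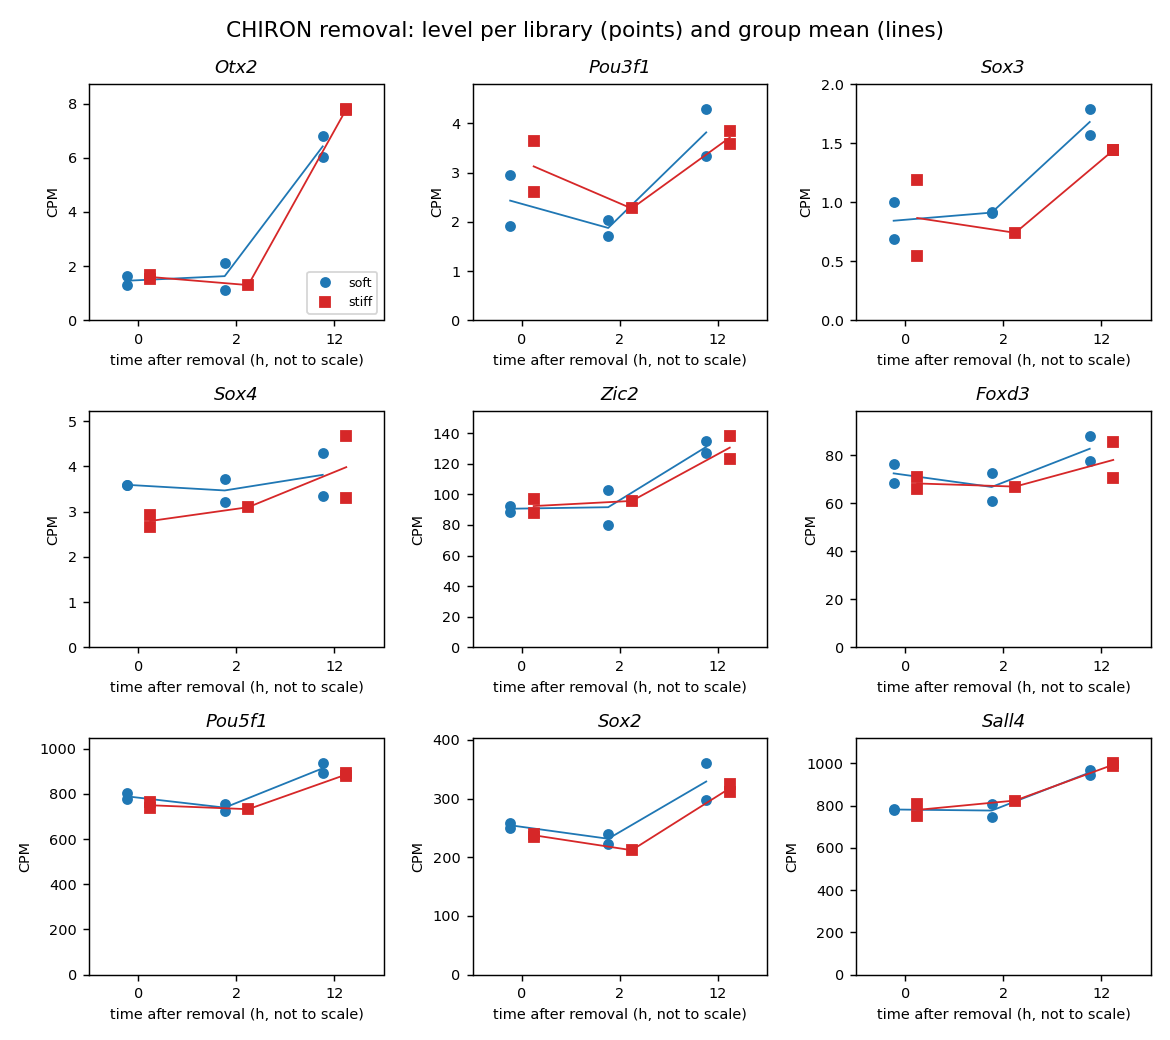
CPM of the 9 genes in the 11 libraries of CHIRON removal by time (h, spaced evenly), with 1 point per library, circles for soft and squares for stiff substrates, and lines through the group means (1 library for stiff at 2 h). *Otx2* lies at or below 2.13 CPM at 0 h and 2 h and between 6.02 and 7.8 CPM at 12 h.

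The design also asked whether these genes depended on substrate stiffness. None of the 9 genes was called between soft and stiff substrates by edgeR at any time in either experiment. DESeq2 called none of those it gave an adjusted p, which left out *Otx2*, *Pou3f1*, *Sox3* and *Sox4* at 2 h and *Sox3* at 12 h after PD03 removal. In PD03 removal 0.0298% of all genes were called between substrates at 0 h, 0.134% at 2 h and 0.767% at 12 h, and in CHIRON removal 0% at 0 h, 2 h and 12 h. Of the 9 genes, 1 at 0 h (*Zic2*), 1 at 2 h (*Sox2*) and 2 at 12 h (*Otx2* and *Sall4*) had an unadjusted p under 0.05 in PD03 removal, and none did in CHIRON removal. Of all 13423 genes tested in PD03 removal, 969 at 0 h, 1148 at 2 h and 1295 at 12 h had such a p. *Otx2* at 12 h after PD03 removal measured 2.13 and 2.6 CPM on soft and 3.53 and 3.46 CPM on stiff substrates. Its change in log2 between soft and stiff was −0.56 ± 0.24 (adjusted p = 0.43). *Sall4* measured 707 and 736 CPM on soft and 787 and 763 CPM on stiff substrates (−0.10 ± 0.043, adjusted p = 0.38). At 2 h after PD03 removal *Sox2* differed by −0.089 ± 0.042 (adjusted p = 0.55) and *Foxd3* by −0.14 ± 0.071 (adjusted p = 0.6).

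For the better counted genes the estimates between substrates were narrow. For *Pou5f1*, *Sox2* and *Sall4* the log2 fold change between soft and stiff lay between −0.10 and 0.012 in PD03 removal (SE up to 0.045) and between −0.086 and 0.13 in CHIRON removal (SE up to 0.11). For *Pou3f1* and *Sox3* the SE was 0.28 to 0.60, so their differences between substrates were known far less precisely at this depth. At 2 h and at 12 h after PD03 removal 8 of 9 genes had a negative log2 fold change, with medians of −0.089 and −0.067 against 0.001 and −0.002 over all genes. At 0 h in that experiment 5 were positive and 4 negative, with a median of 0.012. In CHIRON removal 5 were positive at 0 h and 2 h and 6 at 12 h.

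The difference in response between substrates was not called for any of the 9 genes either. After PD03 removal 0.00745% of all genes were called for the response at 2 h, and 0% at 12 h. After CHIRON removal 0% were called at both times. For the response to PD03 removal, *Zic2* at 2 h (soft minus stiff, −0.21 ± 0.086, adjusted p = 0.99) and *Otx2* (−0.74 ± 0.33, adjusted p = 0.7) and *Zic2* (−0.20 ± 0.086, adjusted p = 0.69) at 12 h had an unadjusted p under 0.05. So did 606 of all 13423 genes at 2 h and 901 at 12 h. *Pou3f1* and *Sox3* had differences of 1.05 ± 0.68 and 0.33 ± 0.61 at 12 h (adjusted p = 0.83 and 0.96). No gene of the 9 had an unadjusted p under 0.05 for the response to CHIRON removal, and DESeq2 called none in any of the 4 comparisons.

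**Figure D5:**
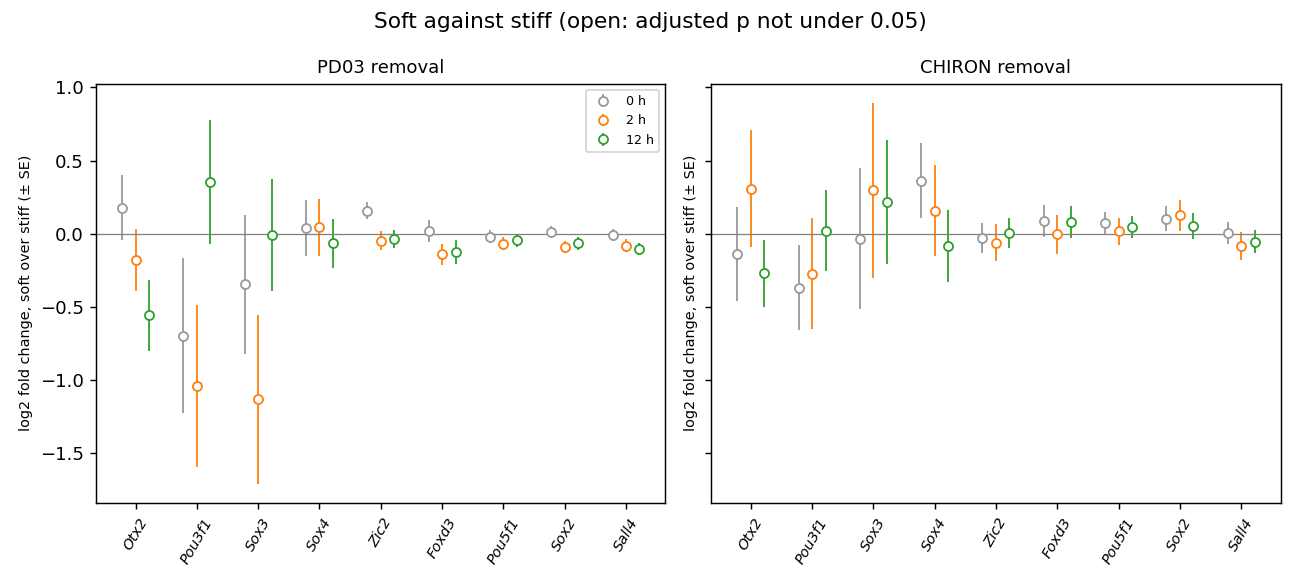
Log2 fold change ± SE of each gene between soft and stiff substrates at 0 h, 2 h and 12 h after PD03 removal (left) and CHIRON removal (right), where positive values are higher on soft substrates. No symbol is filled, since no adjusted p was under 0.05, and the error bars of *Pou3f1* and *Sox3* are widest after PD03 removal and those of *Sox3* after CHIRON removal.

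Both experiments were in 2i + LIF at 0 h. Levels at that time did not overlap between them for 7 of the 9 genes, a share near the 72.7% of all 14759 genes for which this held, and *Sox3* and *Sox4* overlapped. On the joint TMM scale of all libraries, *Sox2* ranged from 427 to 432 CPM in the 4 libraries of PD03 removal and from 257 to 282 CPM in the 4 of CHIRON removal, *Otx2* from 2.71 to 3.34 and from 1.42 to 1.83 CPM, and *Pou3f1* from 0.352 to 1.09 and from 2.08 to 3.96 CPM. *Sall4* (506 to 523 and 818 to 887 CPM), *Zic2* (55.7 to 63.4 and 95.6 to 107 CPM) and *Foxd3* (44.9 to 47.0 and 71.6 to 83.4 CPM) were lower in PD03 removal. These levels were not tested, and each response was read against the 0 h libraries of its own experiment.

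The responses at 12 h were next compared between the removals in 1 model of all 23 libraries, over the 14759 genes tested in it. Each removal was an experiment of its own with its own 0 h libraries, so the inhibitor and the experiment cannot be told apart. *Otx2* responded less to PD03 removal than to CHIRON removal on both substrates, by −2.66 ± 0.34 on soft and −2.05 ± 0.34 on stiff substrates on the log2 scale (adjusted p = 1.4e-06 and 4.5e-05). *Sox2*, which fell in the one and rose in the other, differed by −0.61 ± 0.096 and −0.57 ± 0.097 (adjusted p = 3.5e-05 and 6.5e-05). *Pou5f1* differed by −0.26 ± 0.085 on both substrates (adjusted p = 0.027 and 0.023). On soft substrates *Zic2* (−0.44 ± 0.12, adjusted p = 0.011), *Foxd3* (−0.41 ± 0.14, adjusted p = 0.04) and *Sox4* (0.81 ± 0.28, adjusted p = 0.041) differed as well. *Sall4*, which rose after both removals, had differences of 0.081 and 0.12 (SE 0.083, adjusted p = 0.55 and 0.32). Together 6 of 9 genes were called on soft substrates beside 21% of all genes, and 3 of 9 on stiff substrates beside 23.5%.

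Without 1 library of those compared, 4 genes lost calls on soft substrates. *Sox4* lost it without PD03 removal soft 0 h replicate 1 (0.91, adjusted p = 0.059) or 2 (0.72, 0.13), soft 12 h replicate 1 or 2 (both 0.81, 0.089), CHIRON removal soft 0 h replicate 1 (0.82, 0.076) or 2 (0.82, 0.081) or soft 12 h replicate 1 (0.63, 0.18). *Foxd3* lost it without PD03 removal soft 0 h replicate 1 (−0.38, 0.12) or 2 (−0.44, 0.073), soft 12 h replicate 1 (−0.29, 0.23), or CHIRON removal soft 0 h replicate 1 (−0.32, 0.17) or soft 12 h replicate 2 (−0.32, 0.15). *Zic2* lost it without PD03 removal soft 12 h replicate 1 (−0.41, 0.05, not under the threshold) or CHIRON removal soft 0 h replicate 2 (−0.40, 0.056). *Pou5f1* lost it without PD03 removal soft 0 h replicate 2 (−0.21, 0.15), soft 12 h replicate 1 (−0.21, 0.15), CHIRON removal soft 0 h replicate 2 (−0.23, 0.1) or soft 12 h replicate 2 (−0.23, 0.087). On stiff substrates *Pou5f1* lost it without PD03 removal stiff 0 h or 12 h replicate 2 (−0.24, 0.094 and −0.25, 0.081) or CHIRON removal stiff 0 h or 12 h replicate 2 (−0.24, 0.064 and −0.24, 0.072). The call of *Sox4* in this comparison was kept in 3 of 15 alternatives (adjusted p = 0.024 to 0.18), that of *Foxd3* in 7 (0.0055 to 0.36), that of *Zic2* in 12 (0.0011 to 0.35), and that of *Pou5f1* in 9 on each substrate (0.02 to 0.98 on soft and 0.015 to 0.97 on stiff substrates). Those of *Otx2* held in all 15 on both substrates, and those of *Sox2* in all but the one with the discarded library, where its adjusted p was 0.8 and 0.79 (the lowest over its alternatives being 1.2e-08 and 7.8e-08).

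Other genes of the formative state were read from a list of 17, of which 16 were tested in each experiment, *Fgf5* having at most 10 counts in any library. At 12 h after PD03 removal 8 of 16 rose and none fell on soft substrates, and 10 rose and none fell on stiff substrates, beside 29.4% and 38.4% of all genes called in either direction, with medians of 0.41 and 0.50. *Sox11*, a SOX factor of neural progenitors, rose by 1.88 and 1.98 on the log2 scale on soft and stiff substrates, *Lin28a*, which blocks maturation of let-7 miRNAs, by 1.59 and 1.83, and the ETS factor gene *Etv4* by 1.10 and 1.22. After CHIRON removal the list was split, with 6 higher and 4 lower on soft substrates and 5 higher and 4 lower on stiff substrates, beside 17.8% and 16.8% of all genes (medians −0.038 and 0.021). There *Lin28a* fell by 2.12 and 1.83 on the log2 scale. *Lef1*, the gene of a nuclear partner of β-catenin (−2.27 and −1.42), and *Grhl2* (−1.25 and −1.65) fell as well, whereas *Tcf15* rose by 1.43 and 1.40. *Lin28a* thus rose after one removal and fell after the other. At 2 h, 2 of 16 rose on each substrate after PD03 removal, beside 1.96% and 2.73% of all genes, and none was called after CHIRON removal, beside 0.226% and 0.103%.

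Of 12 other general pluripotency genes, 5 rose and 2 fell on soft substrates and 6 rose and 3 fell on stiff substrates at 12 h after PD03 removal, beside the same 29.4% and 38.4% of all genes. *Utf1*, a chromatin-associated factor of the epiblast, rose by 1.31 and 1.70, *L1td1* by 0.48 and 0.63, *Zscan10* by 0.31 and 0.30 and *Nacc1* by 0.28 and 0.32. After CHIRON removal 3 rose and 1 fell on soft substrates and 4 rose and none fell on stiff substrates, beside 17.8% and 16.8%. *Tdgf1*, the NODAL co-receptor gene, rose by 0.38 and 0.45, *L1td1* by 0.39 and 0.31 and *Trim28* by 0.27 and 0.25. The medians of this list were 0.12 on both substrates for PD03 removal and 0.12 and 0.16 for CHIRON removal.

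Family relatives of the 9 genes formed a list of 21, of which 16 were tested after PD03 removal and 18 after CHIRON removal. Several of them are also on the formative list, so the counts of these lists are not separate. At 12 h after PD03 removal 6 rose and 1 fell on soft substrates and 6 rose and none fell on stiff substrates, beside 29.4% and 38.4% of all genes, so that the share on stiff substrates was no higher than that over all genes. Among those that rose on both were *Sox11*, which is also on the formative list, *Sall3* (0.59 and 0.78) and *Sox12* (0.38 and 0.55). After CHIRON removal 9 rose and 1 fell on soft substrates and 9 rose and none fell on stiff substrates, beside 17.8% and 16.8% of all genes. *Sox21*, a SOX factor that counteracts SOX2 targets, rose by 1.54 and 1.57, *Pou3f2*, a POU factor close to *Pou3f1*, by 1.06 and 1.09, *Sox1* by 1.10 and 0.89 and *Sox15* by 1.03 and 0.93. The medians were 0.27 and 0.49 for PD03 removal and 0.45 and 0.53 for CHIRON removal, on soft and stiff substrates. Soft against stiff at 12 h after PD03 removal, 3 of 16 formative genes, 2 of 12 general genes and 1 of 16 relatives were lower on soft substrates and none was higher, beside 0.767% of all genes called, 39 higher and 64 lower. None was called in the same comparison after CHIRON removal. The lists were chosen with earlier results of these data known, so shares above that over all genes are a description only.

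The genes whose pattern was most like that of each of the 9 were found over the 12 group means of both experiments, centred within each experiment, among 13174 genes. These means share libraries and the correlations are a description. *Sall4* was closest to *Dyrk3*, *Cd37* and *Gse1* (r = 0.993, 0.987 and 0.985) and *Zic2* to *Kbtbd11*, *Atp1b2* and *Fxr2* (0.985, 0.971 and 0.964). *Otx2* was closest to *Mical1*, *A730049H05Rik* and *Mov10* (0.981, 0.969 and 0.968) and *Sox4* to *Ctdsp1*, *Nrgn* and *Nectin1* (0.98, 0.98 and 0.97). *Pou5f1* was closest to *Ube2g2*, *Tdgf1* and *Akirin1* (0.975, 0.966 and 0.966), *Sox2* to *Nuak1*, *Mob4* and *Mrpl57* (0.967, 0.964 and 0.959) and *Sox3* to *Kdm1b*, *Samd1* and *Ccdc124* (0.972, 0.945 and 0.942). *Pou3f1* was closest to *Utp11l*, *Dhx8* and *Gtse1* (0.941, 0.934 and 0.923). *Foxd3*, with its peak at 2 h after PD03 removal, was closest to *Ubald1*, the immediate early gene *Egr1* and *Maff* (0.914, 0.906 and 0.901).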

How the data were processed

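RNA of E14 mESCs on soft and stiff StemBond hydrogels was sequenced after ribosomal RNA depletion. The authors trimmed reads with Trim Galore, aligned them to GRCm38/mm10 with TopHat v2.1.0, and deposited raw counts per gene from featureCounts v1.5.0, without normalisation. In the deposited table of PD03 removal, 12 further columns belong to samples outside this series and were left unused. Protein-coding genes (GENCODE M21) were filtered with filterByExpr of edgeR 4.0.16 in R 4.3.3 (minimum count 10, minimum total count 15), normalised by TMM and tested with edgeR's quasi-likelihood test, with all 6 groups of an experiment in 1 model. Responses were compared between experiments in 1 model of 12 groups. Benjamini-Hochberg adjustment covered all genes tested (13423, 14615 and 14759), with a threshold of 0.05, and a gene is "called" below it. SEs were obtained as |log2 fold change| / √F. The biological coefficient of variation was 0.0386 for PD03 removal and 0.0797 for CHIRON removal.

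Alternatives were DESeq2 1.42.0, edgeR with DESeq2 size factors, dropping the filter, keeping all genes of the table, a model of only the groups compared, a replicate block, leaving out each replicate and adding the discarded library. The scripts were tested on simulated data. The members and lists were chosen with earlier results of these data known. All 9 members are named. Other genes were named by rule: at most 4 per list and removal, called on both substrates at 12 h in the same direction with the largest mean change, and the 3 genes most correlated with each member. A gene that this rule would name is not reported here. Intervals cover counting error and the spread of these libraries only. Figures were drawn with matplotlib 3.10.9.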

Additional observations from a re-analysis of the deposited data

Results flagged for a closer look

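The responses at 12 h differed between the removals by a test of the difference itself (PD03 minus CHIRON removal, log2 scale, edgeR) for 9 values. On soft substrates these were *Otx2* (−2.66), *Sox2* (−0.61), *Zic2* (−0.44), *Foxd3* (−0.41), *Pou5f1* (−0.26) and *Sox4* (0.81). On stiff substrates they were *Otx2* (−2.05), *Sox2* (−0.57) and *Pou5f1* (−0.26). The removals were separate experiments, so the inhibitor and the experiment cannot be told apart.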

How the results depend on the processing

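Of 2231 values of single genes under the alternatives, 2154 stayed on the same side of the threshold, 76 lost a call, 1 gained one and no called value changed sign. Only values called in the main analysis could lose a call, and most of the 2231 were not called there. The share of calls lost is therefore larger than 76 of 2231. The number of the 9 genes called after CHIRON removal at 12 h went from 4 on soft and 5 on stiff substrates to 1 on each when the discarded library of 171333 counts was added, and that for the difference between removals from 6 on soft and 3 on stiff substrates to 1 on each. With all genes of the table the difference on soft substrates was called for 3 genes in place of 6. The causes were not tested. Leaving out each replicate gave 3 to 5 genes on soft and 3 to 4 on stiff substrates at 12 h after PD03 removal, 2 and 2 to 3 at 2 h, and 5 to 7 and 4 for 12 h against 2 h. It gave 2 to 3 and 3 to 4 at 12 h after CHIRON removal, and 2 to 5 and 2 to 3 for the difference between removals. All comparisons of soft with stiff stayed at 0. DESeq2 gave no adjusted p for *Sox3* at 12 h against 0 h or 2 h on soft substrates after PD03 removal, so its counts there (4 in place of 6, and 6 in place of 7) leave *Sox3* out. Libraries with the same replicate number were not taken as pairs, since deviations of same-numbered libraries had a mean correlation of −0.0028 (−0.052 to 0.11) in PD03 removal and −0.02 (−0.11 to 0.071) in CHIRON removal. With a replicate block 4 in place of 5 genes were called on stiff substrates at 12 h after CHIRON removal (*Pou5f1*, adjusted p = 0.067), and the counts of the other comparisons were as without it. The low counts of *Sox3*, *Pou3f1* and *Otx2* limit the size of change that could be detected.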

Other observations

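The difference in response at 12 h (PD03 minus CHIRON removal) was also read for the lists of related genes, beside 21% of all genes called on soft and 23.5% on stiff substrates in either direction. Of 17 other formative genes, 7 had a positive and 1 a negative difference that was called, on soft as on stiff substrates. A positive difference need not be a larger response to PD03 removal, since a fall after CHIRON removal also gives one. Of 18 family relatives tested in this comparison, 2 had a positive and 4 a negative difference that was called on soft substrates, and 3 and 2 on stiff substrates. Of 12 other general pluripotency genes, the numbers were 2 and 1 on soft and 3 and 2 on stiff substrates. Nothing particular to the relatives or the general genes is read from these numbers. Trophoblast markers summed to 13.8 to 16.5 CPM at 0 h and 17.9 to 21.7 CPM at 12 h after PD03 removal, and to 12.6 to 15.1 and 18.0 to 25.8 CPM after CHIRON removal. These sums rested mainly on different genes. Over all times of PD03 removal *Cdx2* ranged from 8.59 to 20.6 CPM, and *Gata3* had at most 7 counts. In CHIRON removal *Cdx2* ranged from 0 to 6.67 CPM and *Gata3* from 6.07 to 24.4 CPM.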
